A study of Mus musculus with 30 samples.

Results

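The lysyl oxidases and the lysyl hydroxylases are enzymes that modify lysines of collagen on the way to its crosslinks. They were taken by gene symbol from the RNA tables and from the lists of chromatin sites of a study on mechanical cues, Yap and Taz in mouse tendon cells. The 8 genes are Lox, Loxl1, Loxl2, Loxl3, Loxl4, Plod1, Plod2 and Plod3, of 35973 genes in the larger table, and all 8 passed the filter on low values. Sites whose annotated gene is one of the 8 filled 11 of 16367 entries in 5 site lists and were 10 distinct regions. The study used primary wildtype fibroblasts from mouse tail tendon, grown in medium with 10% serum and treated in medium with 0.1% serum. Poly(A) RNA was sequenced after the solvent DMSO, after 10 µM blebbistatin, an inhibitor of non-muscle myosin II, and after 30 µM Y27632, a kinase inhibitor, with 3 libraries per group. Chromatin accessibility (ATAC-seq) was measured after the same 3 treatments. A further set of genomic DNA libraries crossed 10 ng/mL doxycycline with 10 µM blebbistatin, with DMSO named as the treatment of the group given neither drug. The labels give these libraries as wildtype too and do not say what doxycycline switched on, and they name no assay for that set in particular. Age, sex, treatment time and the number of animals behind the cells were not given in the sources used here. Each group held 3 libraries.

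Collagen becomes a load-bearing fibre through a relay of lysine modifications. Lysyl hydroxylases, encoded by the Plod genes, hydroxylate lysines of procollagen inside the endoplasmic reticulum, and lysyl oxidases, copper enzymes that are secreted, oxidise lysine and hydroxylysine outside the cell so that neighbouring molecules bond. In tendon, where type I collagen carries the load, the kind and number of these bonds set stiffness and resistance to tearing.

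The RNA libraries held between 23375386 and 37061737 reads in genes. Of 7 tendon fibroblast markers, none was at 0 reads in any library, and their summed level ran from 20100 to 21700 CPM, which is reads scaled to a common library size, under DMSO, 18000 to 20000 under blebbistatin and 20100 to 21300 under Y27632. Most of that sum was Col1a1, at 8580 to 11100 CPM, and Col1a2, at 7930 to 9330 CPM. Both are also collagen substrates in the list described below, and they changed by -0.25 and -0.12 on the log2 scale under blebbistatin. Tnmd was at 26.7 to 39.3 CPM and Mkx at 34.6 to 43.2 CPM. Scx, a transcription factor of tendon, was low, at 49 to 102 reads per library. The muscle markers Myod1 and Ckm had 0 reads in all 9 libraries. Markers of blood cells moved with the treatments: the 5 markers summed to 210 to 233 CPM under DMSO, 304 to 341 under blebbistatin and 307 to 348 under Y27632, most of it Lyz2, while Ptprc, which marks all white blood cells, had 117 to 269 reads per library. The 5 endothelial markers summed to 119 to 122, 76 to 85.3 and 107 to 114 in the same order, most of it Tek, while Pecam1 had 4 to 19 reads and Emcn at most 4. Pericyte and smooth muscle markers summed to 84.4 to 95 CPM under DMSO, 101 to 113 under blebbistatin and 90.6 to 113 under Y27632. Cartilage markers summed to 5.15 to 6.25, 7.95 to 8.65 and 8.12 to 8.34 in that order, and Schwann cell markers to 4.37 to 5.24, 5.81 to 6.25 and 5.13 to 6.23. Skeletal muscle markers, all of it Acta1, were at 0.996 to 1.3, 0.313 to 0.905 and 0.545 to 1.06, and keratinocyte markers at no more than 0.755 in any library. The part of these cells in the results below was not tested. In bulk RNA, fewer cells of a type and less RNA per cell cannot be told apart.

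One promoter of the set lay inside a listed chromatin site, that of Loxl4, and it is shown because Loxl4 also had the largest RNA change of the 8 genes. The sequence comes from RefSeq (GRCm38.p6, the assembly also called mm10) and covers the 250 bases before the start of the gene, chr19:42612807-42613056 on the minus strand, written 5′ to 3′ with the motif match in capitals.
Loxl4: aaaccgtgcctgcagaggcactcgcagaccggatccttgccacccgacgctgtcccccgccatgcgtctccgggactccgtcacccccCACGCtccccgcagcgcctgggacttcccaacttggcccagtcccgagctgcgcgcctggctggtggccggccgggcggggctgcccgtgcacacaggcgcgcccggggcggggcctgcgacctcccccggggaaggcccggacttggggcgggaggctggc
This stretch was 76.0% G and C, against a median of 52.4% over all promoters in the table. The capitals mark the hypoxia response core GCGTG, read on the opposite strand, whose first base lies at -162 from the start. That core was also present in 32.4% of 32851 promoters, searched in a longer window that also reaches past the start and is not printed here. Both strands were searched for 4 other motifs: the TEAD motif GGAATG, held by 14.7% of promoters, the AP-1 motif TGANTCA, held by 7.81%, the hypoxia core ACGTG, held by 19.6%, and the SRF CArG box, held by 1.63%. None of these letters occurred in that longer window of Loxl4. Promoters were matched for 3 of the 8 genes, Loxl4, Plod1 and Plod3.

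The first comparison asked how the crosslinking genes responded when myosin II was inhibited. Lox, Loxl4, Plod2 and Plod3 fell under blebbistatin and Plod1 rose, while Loxl1, Loxl2 and Loxl3 did not pass the test. Each value below is a normalised count, the read count divided by 1 size factor per library, as the authors deposited it. A gene was called at a Benjamini-Hochberg adjusted p under 0.05 from limma on log2(normalised count + 1), fitted over 14882 genes. By this rule 53.0% of all genes tested were called under blebbistatin, and 5 of the 8 crosslinking genes were, which is near that background. Lower calls made up 26.9% of all genes and 4 of the 8, and higher calls 26.1% of all genes and 1 of the 8. The median log2 change of the 8 was -0.17, against 0 over all genes tested.

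**Figure D1:**
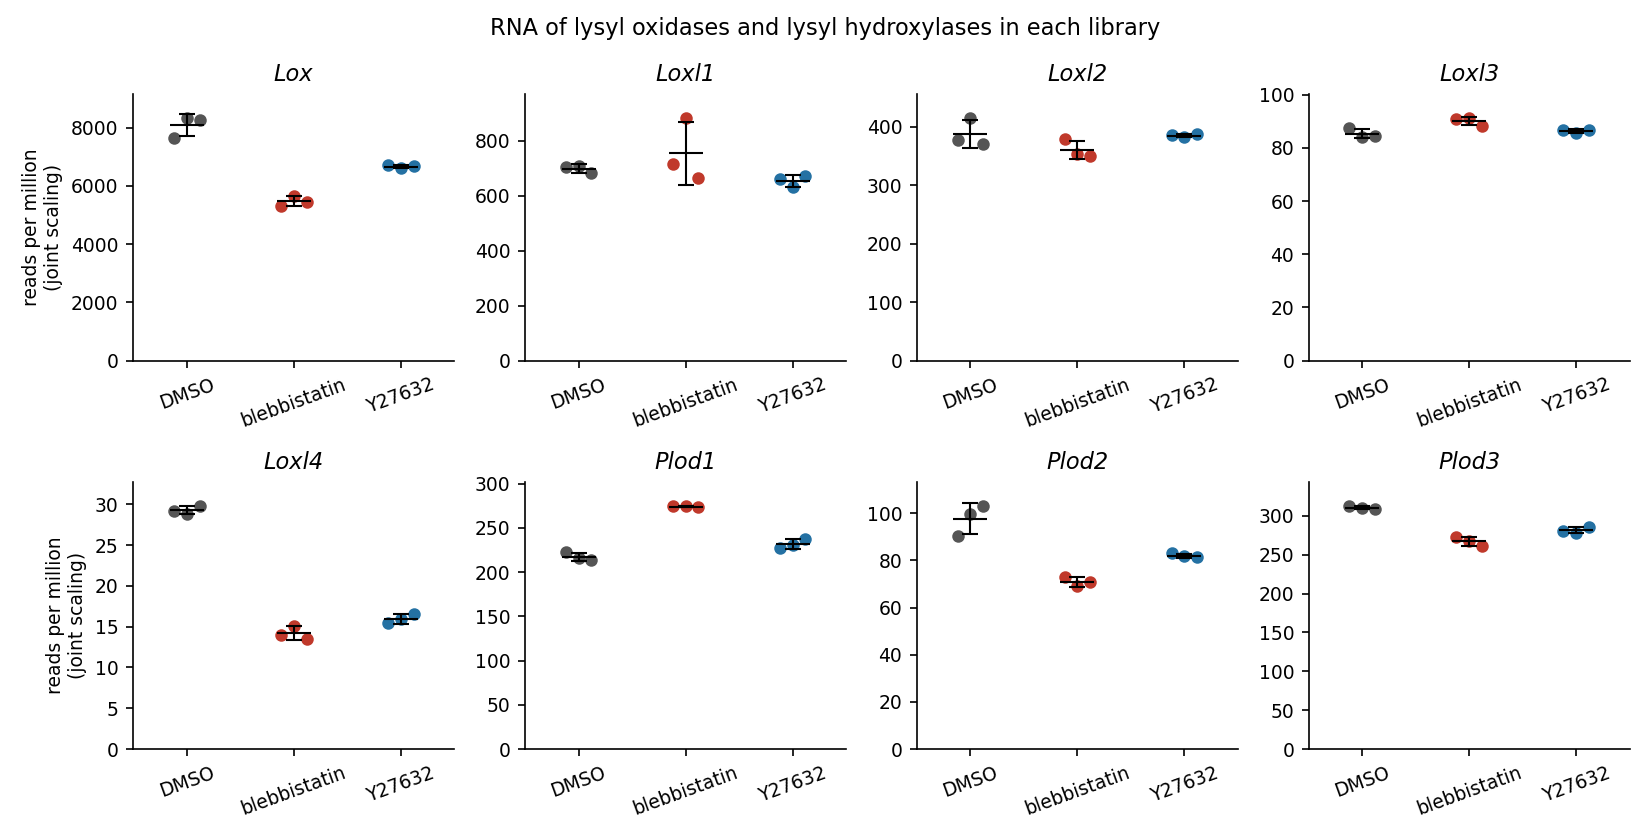
CPM in each of the 9 RNA libraries after 1 joint scaling, by gene and treatment; points are libraries, the long bar is the mean and the whiskers are 1 SD (n = 3). Loxl4 separates widely between DMSO and both inhibitors, the blebbistatin points of Plod1 lie above all others, and 1 blebbistatin library of Loxl1, at 883.8, lies apart from the other two.

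Among the lysyl oxidases, Lox, the founding member that oxidises both collagen and elastin, is described first. Its normalised counts were 202900, 221600 and 219400 under DMSO and 140300, 149300 and 143300 under blebbistatin. All 3 treated libraries lay well below the lowest DMSO library. The mean went from 214600 ± 10200 to 144300 ± 4550 (SD, n = 3), a ratio of 0.672, and the change was -0.57 on the log2 scale, standard error (SE) 0.042 (limma adjusted p = 2.02e-07). As a share of all reads in genes, Lox took 0.746% to 0.817% of a DMSO library and 0.549% to 0.58% of a blebbistatin library.

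Loxl4, a lysyl oxidase-like enzyme with scavenger receptor domains, showed the largest change of the set. Under DMSO its normalised counts were 774.5, 765.6 and 789.2, and under blebbistatin they were 368.8, 399.6 and 356.5. The groups were far apart relative to the spread inside each. The mean fell from 776.4 ± 11.9 to 374.9 ± 22.2 (SD, n = 3), a log2 change of -1.05, SE 0.061 (limma adjusted p = 2.33e-08).

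The other 3 lysyl oxidases did not pass the test. Loxl1, best known for maintaining elastic fibres, had normalised counts of 18720, 18860 and 18090 under DMSO and 18860, 23350 and 17570 under blebbistatin. The groups overlapped, and 1 treated library alone stood high. The log2 difference was 0.09, with a 95% interval from -0.08 to 0.26 (limma adjusted p = 0.342); without blebbistatin library 2 it was -0.03, and without blebbistatin library 3 it was 0.18 and called (adjusted p = 0.0497). Loxl2, which can oxidise collagen IV, read 10040, 11050 and 9853 under DMSO and 10010, 9334 and 9251 under blebbistatin. These groups overlapped by a single pair of libraries. The log2 difference was -0.11, with an interval from -0.21 to -0.01 and a limma adjusted p of 0.0537, which just missed the threshold. In the authors' deposited table the adjusted p for Loxl2 was 0.0449. DESeq2 on the recovered reads gave the same 0.0449, and the call was also made without blebbistatin library 1 (adjusted p = 0.0299) or without DMSO library 3 (adjusted p = 0.0226). Without any other library it was not called, and without DMSO library 2 the difference was -0.06 (adjusted p = 0.25). Loxl3 was at 2317, 2236 and 2246 under DMSO and 2397, 2413 and 2332 under blebbistatin. The groups did not overlap, yet the log2 difference was 0.07, with an interval from -0.01 to 0.15 (limma adjusted p = 0.111).

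The 3 lysyl hydroxylases moved in both directions. Plod1, the enzyme that hydroxylates lysines within the triple helix, had normalised counts of 5905, 5733 and 5673 under DMSO and 7248, 7247 and 7232 under blebbistatin. The treated libraries were almost identical to each other and above every DMSO library. The mean rose from 5770 ± 120 to 7242 ± 9.15 (SD, n = 3), a log2 change of 0.33, SE 0.03 (limma adjusted p = 1.49e-06).

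Plod2, the lysyl hydroxylase of the telopeptides, the short ends of collagen where crosslinks start, went the other way. Its normalised counts were 2395, 2648 and 2732 under DMSO and 1932, 1824 and 1868 under blebbistatin. Every treated library was below every DMSO library. The mean fell from 2591 ± 175 to 1875 ± 54.5 (SD, n = 3), a log2 change of -0.47, SE 0.049 (limma adjusted p = 5.65e-06).

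Plod3, which also transfers sugars onto hydroxylysine, was at 8289, 8258 and 8187 under DMSO and at 7190, 7086 and 6898 under blebbistatin. The 2 groups were again separate. The mean fell from 8245 ± 52 to 7058 ± 148 (SD, n = 3), a log2 change of -0.22, SE 0.03 (limma adjusted p = 4.02e-05).

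The second comparison asked how the same genes responded to Y27632. It was fitted in its own table, which carries other size factors, so the same DMSO libraries have slightly different normalised counts there. Under Y27632 Lox, Loxl1, Loxl4, Plod2 and Plod3 fell and Plod1 rose. Of 14833 genes tested, 35.9% were called, and 6 of the 8 crosslinking genes were. Lower calls made up 17.8% of all genes and 5 of the 8, and higher calls 18.1% of all genes and 1 of the 8. The median log2 change of the 8 was -0.11, against 0 over all genes. Because both comparisons use the same 3 DMSO libraries, their values are given side by side and their likeness is not counted as a result.

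Lox had normalised counts of 210900, 230000 and 228000 under DMSO and 185000, 182200 and 185300 under Y27632. The treated libraries were tightly grouped below all DMSO libraries. The log2 change was -0.28 with a standard error of 0.04 (limma adjusted p = 0.000156). Loxl4 read 805.1, 794.8 and 820.1 under DMSO and 425.5, 438.3 and 460.2 under Y27632. No treated library came near a DMSO library. The mean fell from 806.7 ± 12.8 to 441.3 ± 17.5 (SD, n = 3), a log2 change of -0.87, SE 0.054 (limma adjusted p = 8.58e-08).

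The remaining lysyl oxidases lay close to DMSO. Loxl1 was at 19470, 19580 and 18790 under DMSO and at 18190, 17400 and 18680 under Y27632. The highest treated library lay just below the lowest DMSO library. The log2 change of -0.09 had a limma adjusted p of 0.0447, and that call was lost in 7 of 14 alternative settings, among them leaving out DMSO library 1 (adjusted p = 0.11), DMSO library 2 (0.146), Y27632 library 1 (0.0773) or Y27632 library 2 (0.182). One scaling over all 9 libraries with edgeR also lost it (adjusted p = 0.34). Loxl2 read 10440, 11470 and 10240 under DMSO and 10660, 10560 and 10760 under Y27632, with overlapping groups. Its log2 difference was -0.01, with an interval from -0.09 to 0.08 (limma adjusted p = 0.925). For Loxl3 the normalised counts were 2409, 2321 and 2334 under DMSO and 2393, 2358 and 2408 under Y27632. They overlapped, and the log2 difference was 0.02, with an interval from -0.05 to 0.09 (limma adjusted p = 0.695).

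Among the lysyl hydroxylases, Plod1 had normalised counts of 6139, 5952 and 5895 under DMSO and 6276, 6356 and 6611 under Y27632. The treated libraries were all higher, by a narrow margin at the nearest pair. The log2 change of 0.10 had a limma adjusted p of 0.0305 and lost its call in 5 of 14 settings, among them leaving out DMSO library 2 (adjusted p = 0.0917), DMSO library 3 (0.082), Y27632 library 2 (0.0546) or Y27632 library 3 (0.128). Plod2 was at 2490, 2748 and 2839 under DMSO and at 2290, 2255 and 2263 under Y27632. All treated libraries lay below the DMSO libraries, with a log2 change of -0.24, SE 0.045 (limma adjusted p = 0.001). Plod3 read 8617, 8573 and 8508 under DMSO and 7758, 7666 and 7937 under Y27632. Its groups were separate, with a log2 change of -0.14, SE 0.028 (limma adjusted p = 0.00218).

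**Figure D2:**
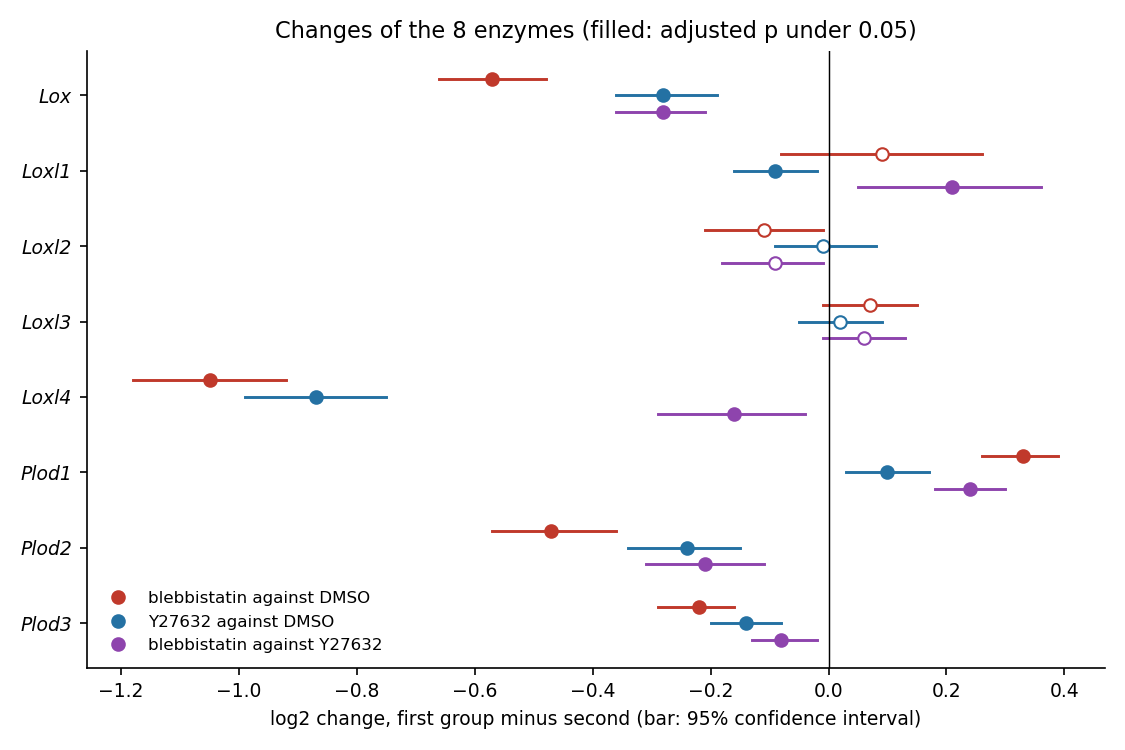
Log2 change of each of the 8 genes (horizontal axis) in 3 comparisons, first group minus second; points are estimates, bars are 95% confidence intervals and filled points passed an adjusted p under 0.05 (limma for the comparisons with DMSO, edgeR for the direct one). Loxl4 reaches -1.05 and -0.87 against DMSO, and Plod1 lies above 0 in all 3 comparisons.

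The inhibitors were then compared directly, at their different doses. Whole reads of all 9 libraries were recovered, scaled together and tested with edgeR over 15262 genes, and values here are jointly scaled CPM. Lox, Loxl4, Plod2 and Plod3 were lower under blebbistatin than under Y27632, and Plod1 and Loxl1 were higher. That made 6 of the 8 called, against 52.4% of all genes. Lower calls made up 25.8% of all genes and 4 of the 8, and higher calls 26.5% and 2 of the 8. The median log2 difference of the 8 was -0.08, against 0.01 over all genes.

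Lox read 5315, 5650 and 5427 CPM under blebbistatin and 6704, 6601 and 6667 under Y27632. The 2 groups were separate, and the log2 difference was -0.28, SE 0.035 (edgeR adjusted p = 8.54e-06). Together with the comparisons against DMSO, the order of Lox levels was DMSO, then Y27632, then blebbistatin, and each step passed its test. Plod2 had the same order, at 73.17, 69.03 and 70.75 CPM under blebbistatin and 83.01, 81.7 and 81.45 under Y27632. Its log2 difference was -0.21, SE 0.045 (edgeR adjusted p = 0.00128). Plod1 had the reverse order, with 274.5, 274.3 and 273.9 CPM under blebbistatin against 227.5, 230.3 and 237.9 under Y27632. The difference was 0.24 on the log2 scale, SE 0.029 (edgeR adjusted p = 6.58e-06).

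For Loxl4 and Plod3 the step between the inhibitors was small. Loxl4 was at 13.96, 15.13 and 13.5 CPM under blebbistatin and at 15.42, 15.88 and 16.56 under Y27632. The groups came close at their nearest pair. The log2 difference of -0.16 had an edgeR adjusted p of 0.0299, and the call was lost under DESeq2 (adjusted p = 0.0994) and without blebbistatin library 1 (0.0643), blebbistatin library 3 (0.0942) or Y27632 library 3 (0.0972). Plod3 read 272.3, 268.2 and 261.3 against 281.2, 277.8 and 285.7, which are also separate. Its log2 difference was -0.08 (edgeR adjusted p = 0.0334), and it was not called without blebbistatin library 3 (adjusted p = 0.0798) or Y27632 library 3 (0.107).

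The other lysyl oxidases had no firm order. Loxl1 read 714.4, 883.8 and 665.3 CPM under blebbistatin and 659.3, 630.5 and 672.3 under Y27632, and the groups overlapped. Its log2 difference of 0.21 was called (edgeR adjusted p = 0.0281). Without blebbistatin library 2 the difference was 0.07 and not called (adjusted p = 0.151), and the call was also lost without Y27632 library 1 (0.0637), without Y27632 library 2 (0.112) and under DESeq2 (0.136). That blebbistatin library had the widest spread from its group over all genes, a root-mean-square log2 deviation of 0.133, where the 9 libraries ran from 0.088 to 0.133. Loxl2 differed by -0.09 with an interval from -0.18 to -0.01 (edgeR adjusted p = 0.0685) and was called in 6 of 14 settings, with an adjusted p of 0.0167 without blebbistatin library 1, 0.0282 without DMSO library 2 and 0.0466 without DMSO library 3. Loxl3 differed by 0.06, with an interval from -0.01 to 0.13 (edgeR adjusted p = 0.111), and none of its 14 settings gave a call.

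The balance between the lysyl hydroxylases was also read within single libraries, where scaling between libraries has no part. These ratios were chosen after the values had been seen. The log2 ratio of Plod1 to Plod2 reads was 1.30, 1.11 and 1.05 in the DMSO libraries, 1.91, 1.99 and 1.95 under blebbistatin and 1.45, 1.5 and 1.55 under Y27632. The 3 groups did not overlap, and the mean was higher than under DMSO by 0.79 with blebbistatin and by 0.34 with Y27632. The log2 ratio of Plod1 to Plod3 reads was -0.49, -0.53 and -0.53 under DMSO, 0.01, 0.03 and 0.07 under blebbistatin and -0.31, -0.27 and -0.26 under Y27632. Here too the groups were separate, with mean differences from DMSO of 0.55 and 0.24. The ratio of Lox to Col1a1, the main chain of type I collagen and a substrate of Lox, was -0.54, -0.39 and -0.29 on the log2 scale under DMSO, -0.73, -0.78 and -0.66 under blebbistatin and -0.50, -0.62 and -0.62 under Y27632. Lox reads were thus lower relative to Col1a1 reads in every blebbistatin library than in every DMSO library, by 0.32 in the mean, while Y27632 overlapped DMSO. A two-sided exact permutation test gave p = 0.1 for 5 of these 6 comparisons with DMSO, the smallest p that 3 against 3 libraries allow, and p = 0.2 for Lox to Col1a1 under Y27632. The adjusted values were 0.12 and 0.2. Gene lengths were not used, so the ratios say nothing of which gene has more transcripts.

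**Figure D3:**
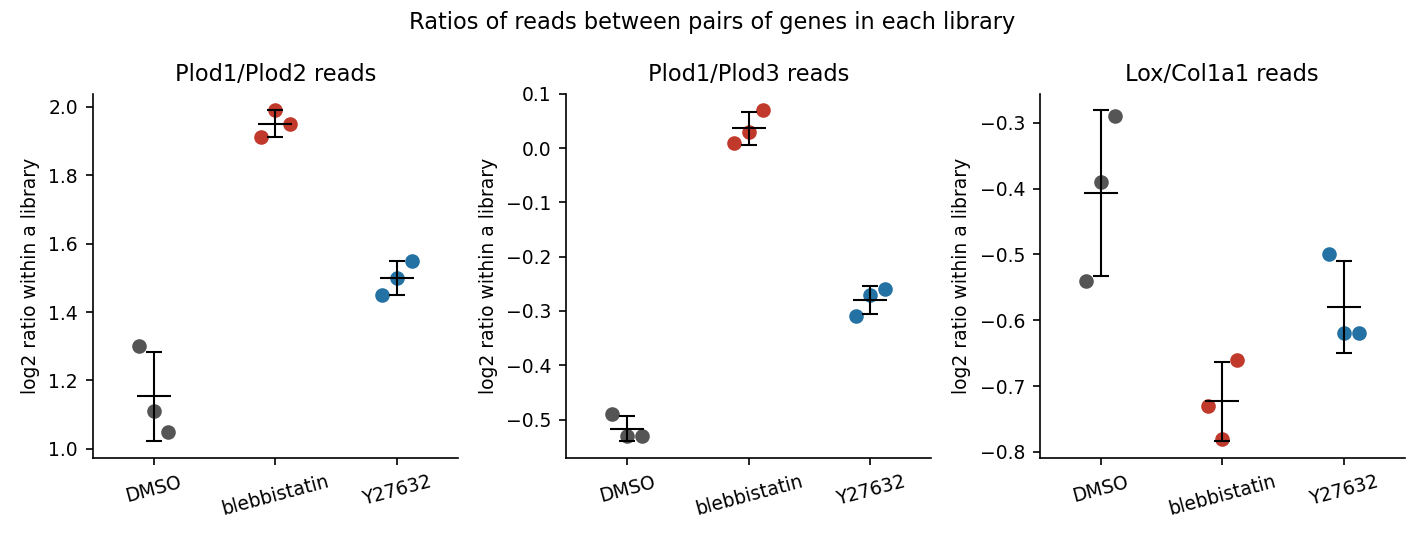
Log2 ratio of reads of 2 genes within each RNA library, by treatment; points are libraries, the long bar is the mean and the whiskers are 1 SD (n = 3), and the vertical axes do not start at 0. Plod1 to Plod2 and Plod1 to Plod3 separate all 3 groups, while Lox to Col1a1 separates blebbistatin from DMSO.

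The crosslinking enzymes work beside the genes that make, modify, fold, export and process procollagen. A list of 42 such genes was grouped by role, and 40 of them could be tested. Under blebbistatin 29 of the 40 were called, 22 lower and 7 higher, with a median log2 change of -0.12. Under Y27632 23 of the 40 were called, 10 lower and 13 higher, with a median of 0.02; without Y27632 library 3 the count was 15. In the direct comparison 26 of the 40 were called, 24 lower and 2 higher under blebbistatin, with a median of -0.13. Over all genes tested 53.0% were called under blebbistatin, 26.9% lower and 26.1% higher, and 35.9% under Y27632, 17.8% lower and 18.1% higher. In the direct comparison 52.4% of all genes were called, 25.8% lower and 26.5% higher. No test of any role as a group was made, and the counts by role below are to be read beside these shares.

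Of 6 collagen substrates, 5 fell under blebbistatin and none rose, where 26.9% of all genes fell. Under Y27632 2 fell and 1 rose, where 17.8% of all genes fell and 18.1% rose. Col1a1 had normalised counts of 294300, 290400 and 269100 under DMSO and 233500, 256800 and 226500 under blebbistatin, without overlap, and a log2 change of -0.25 (limma adjusted p = 0.00115). Under Y27632 Col1a1 differed by -0.10, with an interval from -0.20 to -0.01 (limma adjusted p = 0.0939), and it was called without DMSO library 3 (adjusted p = 0.0223) and by edgeR on recovered reads (0.036). Of 10 prolyl hydroxylases and their partners, which stabilise the triple helix, 7 fell under blebbistatin and none rose, beside the same 26.9% of all genes, and under Y27632 2 fell and 2 rose. P4ha2, a catalytic subunit of prolyl 4-hydroxylase, fell by 0.58 on the log2 scale under blebbistatin (limma adjusted p = 1.79e-07) and by 0.20 under Y27632 (limma adjusted p = 0.00025). P4hb, protein disulfide isomerase and the other subunit of that enzyme, fell by 0.09 under blebbistatin (limma adjusted p = 0.0278) and differed by 0.01 under Y27632 (limma adjusted p = 0.747). The P4hb call under blebbistatin was lost without blebbistatin library 1 (adjusted p = 0.0726), blebbistatin library 3 (0.0987) or DMSO library 2 (0.0893).

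Of 4 chaperones, 3 fell under blebbistatin, where 26.9% of all genes fell, and 1 under Y27632, where 17.8% did, and none rose. Fkbp14, a prolyl isomerase of the endoplasmic reticulum, fell by 0.67 on the log2 scale under blebbistatin (limma adjusted p = 3.06e-08). Its change under Y27632 was -0.10 (limma adjusted p = 0.0488) and was not called without DMSO library 2 (adjusted p = 0.162), DMSO library 3 (0.121), Y27632 library 2 (0.154) or Y27632 library 3 (0.115), nor under DESeq2 (0.105). Serpinh1, the collagen chaperone HSP47, fell by 0.29 under blebbistatin (limma adjusted p = 2.36e-05) and differed by -0.07 under Y27632 (limma adjusted p = 0.0789, and 0.0436 with edgeR on recovered reads). Both export genes that could be tested fell in both comparisons. Sec23a, a coat protein of the vesicles that leave the endoplasmic reticulum, had normalised counts of 6114, 6155 and 6389 under DMSO and 3728, 3727 and 3669 under blebbistatin, far apart, with a log2 change of -0.75 (limma adjusted p = 1.49e-09). Under Y27632 Sec23a changed by -0.12 (limma adjusted p = 0.00983). Mia3, a receptor that loads procollagen for export, changed by -0.22 and -0.15 (limma adjusted p = 7.38e-05 and 0.00456).

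All 7 procollagen propeptidases and enhancers that were tested were called under blebbistatin, 4 higher and 3 lower, where 26.1% of all genes were higher and 26.9% lower. Under Y27632 6 were called, 4 higher and 2 lower, where 18.1% of all genes were higher and 17.8% lower. Tll1, a tolloid-like protease that trims the C-terminal propeptide and belongs to the family that activates Lox, read 466.7, 533.9 and 440 normalised counts under DMSO and 226.4, 206.4 and 196.6 under blebbistatin. Every treated library was well below DMSO, with a log2 change of -1.19 (limma adjusted p = 2.66e-07), and under Y27632 Tll1 changed by -0.50 (limma adjusted p = 0.00164). Bmp1, another protease of the family that activates Lox, read 11000, 11140 and 11100 under DMSO and 12350, 12120 and 11920 under blebbistatin. It rose by 0.13 on the log2 scale (limma adjusted p = 0.00208) and by 0.10 under Y27632 (limma adjusted p = 0.02). Adamts3, of the family that trims N-terminal propeptides, went in opposite directions with the 2 inhibitors. It read 658.3, 674 and 580.1 under DMSO and 284.6, 295.2 and 301.4 under blebbistatin, a log2 change of -1.11 (limma adjusted p = 6.13e-08). Its Y27632 libraries read 887.8, 937.8 and 957, above their DMSO values of 684.4, 699.7 and 602.9, a log2 change of 0.49 (limma adjusted p = 4.9e-05). The direct comparison gave a log2 difference of -1.59 (edgeR adjusted p = 8.8e-11). Pcolce, an enhancer of C-propeptide cleavage, changed by -0.22 and -0.11 (limma adjusted p = 7.17e-05 and 0.0134), and the second call was lost without DMSO library 2 (adjusted p = 0.0557) or Y27632 library 1 (0.0592).

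Among 5 matrix partners of lysyl oxidases, 1 rose and 1 fell under blebbistatin, and 2 rose and 1 fell under Y27632, beside the same shares of all genes. Fmod, a small proteoglycan that binds collagen and guides its crosslinking, rose by 0.25 on the log2 scale under blebbistatin (limma adjusted p = 0.0014) and by 0.66 under Y27632 (limma adjusted p = 3.47e-08), and was lower under blebbistatin than under Y27632 by 0.40 (edgeR adjusted p = 6.98e-06). Fbln5, an elastic fibre protein that binds Loxl1, changed by -0.52 and -0.24 (limma adjusted p = 3.6e-08 and 3.07e-05). Fn1, fibronectin, differed by 0.04 and -0.05 (limma adjusted p = 0.486 and 0.462). Colgalt2, which adds galactose to hydroxylysine, rose from 11.91, 11.03 and 13.79 normalised counts to 38.43, 27.95 and 38.59 under blebbistatin. The groups were separate at a low count, with a log2 change of 1.43 (limma adjusted p = 0.000393), and under Y27632 the difference was 0.40 with an interval from -0.20 to 1 (limma adjusted p = 0.289). Its close relative Colgalt1 differed by 0.03 under blebbistatin (limma adjusted p = 0.393) and rose by 0.11 under Y27632 (limma adjusted p = 0.00583). Slc31a1, the copper importer, fell by 0.13 under blebbistatin (limma adjusted p = 0.00649) and rose by 0.10 under Y27632 (limma adjusted p = 0.0289). Leaving out any 1 of the 6 libraries ended the call under Y27632 (adjusted p from 0.0555 to 0.0844). Tgm2, a transglutaminase that crosslinks matrix by another chemistry, differed by 0.27 under blebbistatin (limma adjusted p = 0.0505) and rose by 0.31 under Y27632 (limma adjusted p = 0.0206). The Tgm2 difference under blebbistatin was called without blebbistatin library 1 (adjusted p = 0.0293) or DMSO library 1 (0.0363). It was also called by edgeR on recovered reads (0.0487), by edgeR with joint scaling (0.0354) and by limma with a minimum mean of 50 (0.0492). Without blebbistatin library 3 the difference was 0.17 (adjusted p = 0.21). The call under Y27632 was lost without DMSO library 3 (0.0785) or Y27632 library 3 (0.0937), and under DESeq2 (0.0525).

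**Figure D4:**
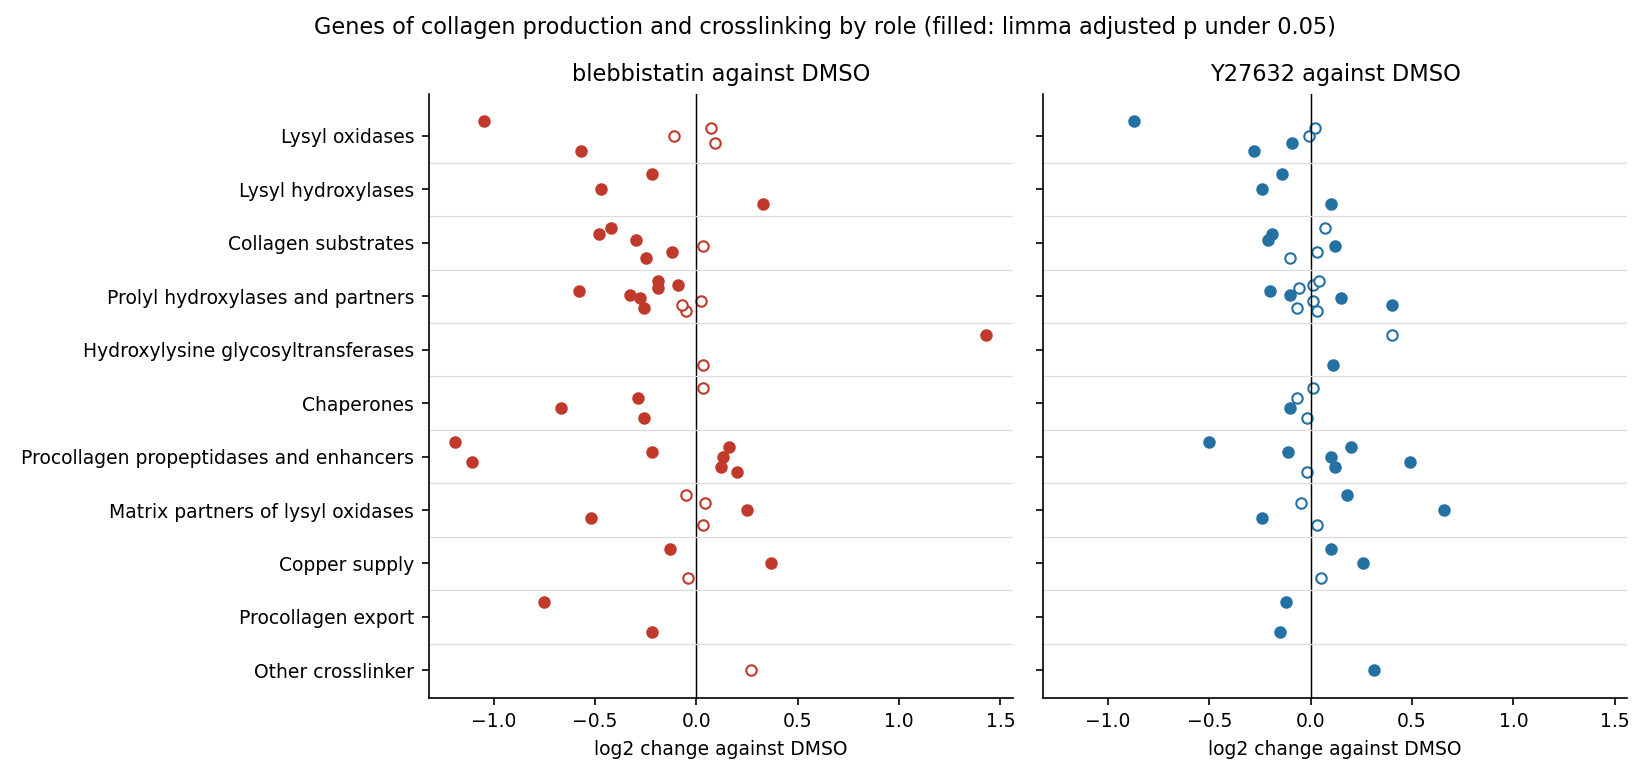
Log2 change against DMSO (horizontal axis) of the 8 crosslinking genes and the 40 tested genes of collagen production, by role, under blebbistatin (left) and Y27632 (right); each point is 1 gene and filled points passed a limma adjusted p under 0.05. The points furthest left under blebbistatin are Tll1 (-1.19), Adamts3 (-1.11) and Loxl4 (-1.05), and Adamts3 lies at 0.49 under Y27632.

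Genes with the pattern most like that of Lox and Loxl4 over the 9 libraries were sought among 11464 genes with a mean of at least 100 reads, each centred on its own mean. The measure was the root-mean-square log2 difference over libraries. Close changes of the genes found follow from this choice and are not a separate result. Nearest to Lox were Ficd, at 0.0354, an enzyme that modifies the chaperone BiP, and Fbln5, at 0.0355. Ficd changed by -0.58 under blebbistatin and -0.27 under Y27632, where Lox changed by -0.57 and -0.28. Nearest to Loxl4 were Slco2a1, a prostaglandin transporter, at 0.0643, and Cacna1b, a calcium channel subunit, at 0.0688. Slco2a1 changed by -1.09 and -0.98 and Cacna1b by -1.10 and -0.93, where Loxl4 changed by -1.05 and -0.87. The group means of the other 6 genes spanned less than 0.5 on the log2 scale, and no such neighbours were sought for them.

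The site lists give the authors' deposited log2 group means, fold and FDR for each region, with no value per library, so sites are described and not tested. In the ATAC lists of blebbistatin and Y27632 against DMSO, the conditions of the RNA libraries, 0 sites were annotated to the 8 genes. Those lists held 970 and 207 sites, 1.54% and 0.335% of the sites tested, whose number was worked out from each site's rank, p and FDR. The nearest site to any of the 8 genes in the blebbistatin list lay 62.2 kb from Plod3 and was annotated to Ap1s1. The list of blebbistatin without doxycycline also held 0 sites of the 8 genes among 1231, 1.78% of those tested. A gene with no site in a list is not thereby shown to keep its accessibility, because the lists hold only sites that passed the authors' thresholds.

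Both lists with doxycycline held sites of these genes. Blebbistatin added to doxycycline gave 6346 listed sites, 8.75% of those tested, of which 5 were annotated to the 8 genes: 4 to Lox and 1 to Loxl1. Doxycycline against neither drug gave 7613, 9.36% of those tested, of which 6 were annotated to the 8 genes: 5 to Loxl4 and 1 to Lox. Each of the 5 was lower with blebbistatin and each of the 6 was higher with doxycycline, as were 99.8% and 95.8% of all sites in those lists. The smallest absolute log2 fold in each list was 1.0, and the medians were -1.13 and 1.15. Folds of the 5 ran from -1.13 to -1.01 and those of the 6 from 1.06 to 1.27, near that floor. A site absent from a list may only have missed the floor. The other 5 genes, Loxl2, Loxl3, Plod1, Plod2 and Plod3, had none. What doxycycline induced is not given, so these sites cannot be tied to a factor.

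The Lox sites were all intergenic, around a gene that lies at chr18:52516060-52529867. In the authors' deposited table the widest of them, chr18:52513979-52515031, lay 1029 bases beyond the 3′ end and had a group mean of 8.73 with doxycycline and 7.72 with blebbistatin added, a log2 fold of -1.01 (FDR 2.25e-10). Next to it, chr18:52513762-52513896 went from 6.33 to 5.2, a fold of -1.13 (FDR 2.09e-05). On the other side of the gene, chr18:52560774-52560933, 31.0 kb before the transcription start, went from 6.66 to 5.62, a fold of -1.03 (FDR 3.32e-05). The fourth site, chr18:52506142-52506334, 23.5 kb past the start, was the only region of these genes in both lists. Its mean was 4.33 with neither drug, 5.45 with doxycycline and 4.39 with blebbistatin added, in the authors' deposited tables, with folds of 1.12 (FDR 0.00135) and -1.06 (FDR 0.00411). The doxycycline libraries are shared by both folds, and the scaling between the lists is not given in the sources used here.

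The Loxl1 site lay inside the gene, in intron 1 of 6, at chr9:58299316-58299874, 13.6 kb past the start. In the authors' deposited table its mean went from 8.86 with doxycycline to 7.77 with blebbistatin added, a log2 fold of -1.09 (FDR 1.49e-13). It ranked 38 by p-value among about 72539 sites tested in that comparison. The Lox sites ranked 284, 5682, 6477 and 26372. The last rank is above the 6346 sites listed, so many sites with a lower p-value were left out of the list.

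Loxl4 had 5 sites that were higher with doxycycline, on both sides of its start. The promoter site, chr19:42612685-42613152, centred at -113 bases from the start and holding the sequence printed above, went from a mean of 6.65 to 7.74 in the authors' deposited table, a log2 fold of 1.09 (FDR 1.19e-07). A narrow site at -1158 bases from the start, chr19:42613909-42614019, went from 4.51 to 5.68, a fold of 1.17 (FDR 0.000386). Further upstream, chr19:42631618-42632010, 19.0 kb away, went from 7.03 to 8.09 (fold 1.06, FDR 3.29e-06) and chr19:42639641-42639846, 26.9 kb away, from 4.92 to 6.04 (fold 1.12, FDR 0.000123). The last site, chr19:42593551-42593730, lay in exon 15 of 15, in the untranslated end of the gene, and went from 4.40 to 5.67, a fold of 1.27 (FDR 0.00106). Among about 81359 sites tested in that comparison, the Loxl4 sites ranked from 971 to 11926 by p-value, and the Lox site ranked 12770. No RNA library was made with doxycycline among those analysed here, so these sites have no matching RNA value.

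**Figure D5:**
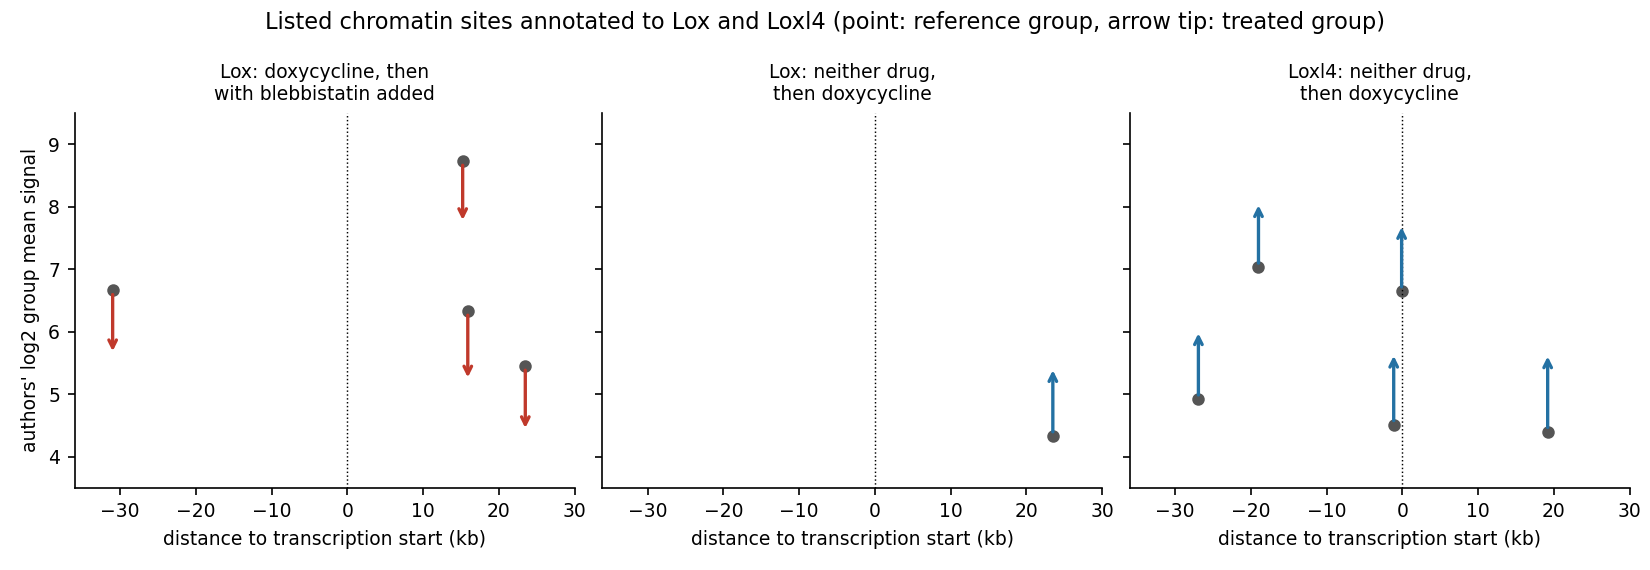
Listed sites annotated to Lox and Loxl4, by distance from the transcription start in kb (horizontal axis) and the authors' log2 group mean signal (vertical axis, not from 0); the point is the reference group and the arrow tip the treated group, with no error since the lists hold group means only. Arrows point down at 4 Lox sites when blebbistatin was added to doxycycline and up at 1 Lox and 5 Loxl4 sites with doxycycline alone.

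One more region touched the set by position and not by its annotated gene. In the list of doxycycline against neither drug, chr9:92562512-92562723 lies in intron 1 of 18 of Plod2, though the authors' deposited table names B430319G15Rik, the gene with the nearest start. Its mean went from 4.97 to 6.03, a log2 fold of 1.06 (FDR 0.000465).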

How the data were processed

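Per the submitters' processing notes, HISAT2, featureCounts, DESeq2, Bowtie2, Picard, SAMtools, MACS2, DiffBind and HOMER and the build mm10 were used, with no role, order or version given; strand settings and annotation are not given in the sources used here. The RNA signal per gene and library is a read count that the authors divided by the library's size factor, with factors of its own in each of 2 tables, as worked out from the deposited values: 100.0% of them were whole multiples of 1 step within 0.05. Whole reads were recovered, and the DMSO reads of both tables differed at 0 of 35972 shared genes. The deposited log2 fold changes and adjusted p-values of the RNA tables carry DESeq2 column names, per the file headers. The log2 group means, log2 folds, p-values and FDR of the sites, and the distance to the nearest start, are the authors' values, per the file headers; replicates had been averaged.

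The main test was limma 3.58.1 with trend on log2(normalised count + 1), in R 4.3.3, on genes with a mean of at least 10, within each table; a fold change on this scale understates that of low genes. edgeR 4.0.16 (TMM, filterByExpr, quasi-likelihood) on the recovered reads of 9 libraries compared the inhibitors. As an alternative, edgeR on recovered reads called 7949 genes under blebbistatin and 5367 under Y27632, and DESeq2 1.42.0 called 6631 and 4109. The fits were tested on simulated data. Intervals are at 95%. Replicate libraries differed by more than sampling noise in every pair; nothing in the labels says that they came from separate cultures or animals, so p-values may measure technical spread only.

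The 8 genes, the role lists, markers and motifs were chosen with earlier results of these data known. Named are the 8 genes; genes of the 42-gene list called against DMSO with an absolute log2 change of at least 0.5, and the gene with the highest mean count in each role; for each of the 8 with group means at least 0.5 apart, the 2 most similar genes; and every site annotated to the 8. Bmp1 was added beside Tll1 after its values were seen. Tll2 and Mia2 fell under the filter. In the list of doxycycline against neither drug, the reference column is headed as blebbistatin without doxycycline; at 13 regions shared with another list its values lay a mean of -0.13 (SD 0.004) from the group with neither drug and 1.12 (SD 0.184) from the group in the header, so it was read as neither drug. Gene positions come from RefSeq, and site distances matched its starts within 200 bases at 10 of 10 regions. Of the gene names in the tables, 93.1% matched the RefSeq table. Alternatives were other pseudocounts, filters and tools, joint scaling, the replicate number as a block, leaving out each library, and stricter site lists.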

Additional observations from a re-analysis of the deposited data

How the results depend on the processing

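Over the 8 genes and 3 comparisons, 299 of 336 alternative values kept their direction and side of the threshold, 23 lost the call, 11 gained one and 3 changed sign. Lox and Plod2 kept all calls in every setting run, as did Loxl4 and Plod3 against DMSO and Plod1 under blebbistatin and in the direct comparison. The sign changed for Loxl1 under blebbistatin without blebbistatin library 2 (-0.03), and for Loxl2 under Y27632 without DMSO library 2 (0.04) or Y27632 library 2 (0.00111). It also changed for Fn1 under blebbistatin without DMSO library 3 (-0.02) and for Tgm2 in the direct comparison without blebbistatin library 1 or Y27632 library 3 (0.04 each). None of these was called, and the cause was not tested. Over all fits with 1 library left out, these 4 ranged from -0.03 to 0.18, -0.04 to 0.04, -0.02 to 0.08 and -0.13 to 0.04.

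Leaving out 1 library at a time gave 5 to 6 of the 8 genes called under blebbistatin, 4 to 5 under Y27632 and 4 to 7 in the direct comparison. The list of 42 gave 27 to 28, 15 to 20 and 21 to 29, and all genes 6994 to 7394, 4304 to 4839 and 7219 to 8099. Libraries with the same replicate number did not deviate together: the correlations were -0.17, 0.04 and 0.04 for blebbistatin and DMSO, -0.12, -0.01 and 0.01 for Y27632 and DMSO, and 0.03, -0.14 and 0.13 between the inhibitors. With the replicate number as a block, 7604, 4633 and 7759 genes were called, of the 8 genes 5, 4 and 5, and of the list 29, 17 and 24; Loxl1 (adjusted p = 0.108) and Plod1 (0.077) under Y27632 and Plod3 in the direct comparison (0.0551) were not called. A stricter FDR of 0.01 and a limit of 100 kb to the start left the site counts at 5 and 6. Neither limit could remove a site, since the highest FDR was 0.00411 and the largest distance 31.0 kb. The floor on the fold, 1.0 in both lists, was not varied. Of the genes tested and named, Colgalt2 had low normalised counts, and the depth of the sites is unknown.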

Other observations

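Some genes of the 42-gene list that were not described above bear on the enzymes by function, and they were chosen here after their values were seen. Fkbp10, a chaperone that partners the telopeptide hydroxylase Plod2, changed by -0.26 on the log2 scale under blebbistatin (limma adjusted p = 2.52e-05) and differed by -0.02 under Y27632 (limma adjusted p = 0.669). P3h4, a partner of the Plod1 enzyme in the endoplasmic reticulum, fell by 0.28 under blebbistatin (limma adjusted p = 8.67e-05) and rose by 0.15 under Y27632 (limma adjusted p = 0.00538). Plod1 itself rose in both. P3h3, of the same role in the list as P3h4, differed by 0.02 and 0.01 (limma adjusted p = 0.725 and 0.873). Atp7a, the pump that loads copper onto secreted enzymes such as Lox, rose by 0.37 and 0.26 (limma adjusted p = 0.00117 and 0.00569). Atox1, also of the copper supply, differed by -0.04 and 0.05 (limma adjusted p = 0.404 and 0.443). Efemp2, a matrix partner of lysyl oxidases, differed by 0.03 and 0.03 (limma adjusted p = 0.454 and 0.43). Eln, the elastin substrate of Lox and Loxl1, fell by 0.42 under blebbistatin (limma adjusted p = 0.000344) and differed by 0.07 under Y27632 (limma adjusted p = 0.376), and the direct comparison gave -0.48 (edgeR adjusted p = 0.000101).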
